A study of Mus musculus with 9 samples.

Results

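The genes described here encode the respiratory chain and the ATP synthase of the mouse heart, and were chosen by symbol from the deposited table: names that begin with Ndufa, Ndufb, Ndufc, Ndufs or Ndufv and a digit, Sdha to Sdhd, Uqcr and Cyc1, Cox4 to Cox8, Atp5, and the mitochondrially encoded mt-Nd, mt-Co, mt-Atp and mt-Cytb genes, without the Ndufaf assembly factors. They are 97 of the 14011 genes in the table, 84 of them encoded in the nucleus and 13 in mitochondrial DNA. By complex there were 35 nuclear genes for complex I, 4 for complex II, 9 for complex III, 16 for complex IV and 15 for complex V, and 5 whose names match although their products are not counted as subunits (Cox7a2l, Cox4nb, Atp5s, Atp5sl and Ndufa4l2). Ndufa4 was placed with complex IV. Of the 13 mitochondrial genes, 7 belong to complex I, 1 to complex III, 3 to complex IV and 2 to complex V. Another 5 annotated genes with matching names (Cox7b2, Cox8c, Atp5l2, Atp5l-ps1 and a second Ndufb8 entry) were not analysed here.

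Complexes I, III and IV pass electrons from NADH to oxygen and pump protons out of the mitochondrial matrix, complex II feeds in electrons from succinate without pumping, and complex V uses the proton gradient to make ATP. Their catalytic centres are made of a few conserved core subunits, around which many small supernumerary subunits, all nuclear-encoded in mammals, are arranged. Both genomes contribute to complexes I, III, IV and V, whereas complex II is entirely nuclear-encoded, and in the heart this system becomes the main source of ATP as development proceeds.

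RNA was taken from whole hearts of embryonic day 10.5 mouse embryos on a mixed strain background, each library being a pool of 6 hearts, with 3 libraries in each of 3 groups. Controls carried floxed Ctcf without Cre (the sample labels give them as Ctcf fl/fl, the study's methods as Ctcf fl/+), heterozygotes were Ctcf fl/+; Nkx2.5-Cre/+ and homozygotes were Ctcf fl/fl; Nkx2.5-Cre/+. All groups thus carried at least 1 floxed allele of Ctcf, which encodes a zinc finger protein that organises chromatin loops, and both Cre groups carried the Nkx2.5-Cre driver, which acts in cardiac progenitors and their derivatives, whereas the pools were whole hearts with their endocardium, epicardium and blood. No group carried Cre without a floxed allele. The deposited table names its columns Het, DH and KO, and not by the sample titles WT, HET and KO. The Het columns were read as the controls and the DH columns as the heterozygotes, an assignment inferred from the methods and from the group means in the study's supplement, and which of these columns is which titled sample is not given.

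Values are normalised read counts on the scale of the deposited table, and the libraries held between 4294537 and 11629365 reads. Ctcf measured 121, 122 and 122 in the controls, 101, 94.2 and 97.0 in the heterozygotes and 79.6, 80.0 and 84.7 in the homozygotes, so every heterozygote library lay below every control and every homozygote library lay lowest. All 12 cardiomyocyte markers examined were in the table, and their summed value spanned 20710 to 23514 in the controls, 23453 to 27104 in the heterozygotes and 19770 to 23297 in the homozygotes. In contrast, 10 of 12 erythroid markers were higher in homozygotes than in controls in limma with Benjamini-Hochberg adjustment: their summed value spanned 37044 to 54444 in controls, 29422 to 49566 in heterozygotes and 64252 to 85507 in homozygotes, without overlap between homozygotes and the other groups. Epicardial markers were higher in 3 of 5. By the same test 2 of 12 cardiomyocyte markers were lower (Nkx2-5 and Nppa), as were 3 of 9 endothelial and endocardial markers with 1 higher, 1 of 5 cushion mesenchyme markers and 1 of 4 macrophage markers, and none of 5 liver and endoderm markers was called. Over all genes 7.19% were called higher and 8.03% lower. In bulk hearts, fewer cells of a type and less RNA per cell cannot be told apart. Control library 1 stood apart by its liver and endoderm markers, summing to 919 against 60.3 and 69.1 in the other controls.

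The first question was how the respiratory chain differs between hearts with a homozygous Ctcf deletion and controls. Of the 97 genes, 34 rose in homozygotes and none fell (limma on log2(value + 0.5), Benjamini-Hochberg adjusted p under 0.05), beside 7.19% of all tested genes called higher and 8.03% called lower. The share of respiratory chain genes called higher was 35.1%, and edgeR and voom called 36 and 41. In limma 63 of the 97 had an unadjusted p under 0.05, beside 4145 of all 14011 genes. With the trend of the differences on exonic length over all genes removed the counts were 18 higher and 3 lower, with that on coding transcript length 15 and 4, and limma without the mean-variance trend called 22. The median over the 84 nuclear-encoded genes was 0.19 on the log2 scale, against 0.00 over all 14011 genes, and came to 0.0623 and 0.0703 under the length corrections. No single member changed by more than 0.56 where it was called. In 53 of the 97 the 3 homozygote libraries were all higher than the 3 controls, which held for 16.6% of all tested genes. Whole-library medians over the nuclear-encoded genes lay at -0.04, 0.08 and -0.04 relative to the control mean in the controls, at 0.04, 0.03 and 0.03 in the heterozygotes, and at 0.19, 0.16 and 0.24 in the homozygotes, so that the 3 homozygote libraries stood above the other 6. Without control library 1, 27 of the 97 were called, 26 of them higher. With only genes of a mean value of at least 10 tested, 41 were called, 40 of them higher. The erythroid and epicardial markers moved with the same contrast, and their part in these counts was not tested.

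**Figure D1:**
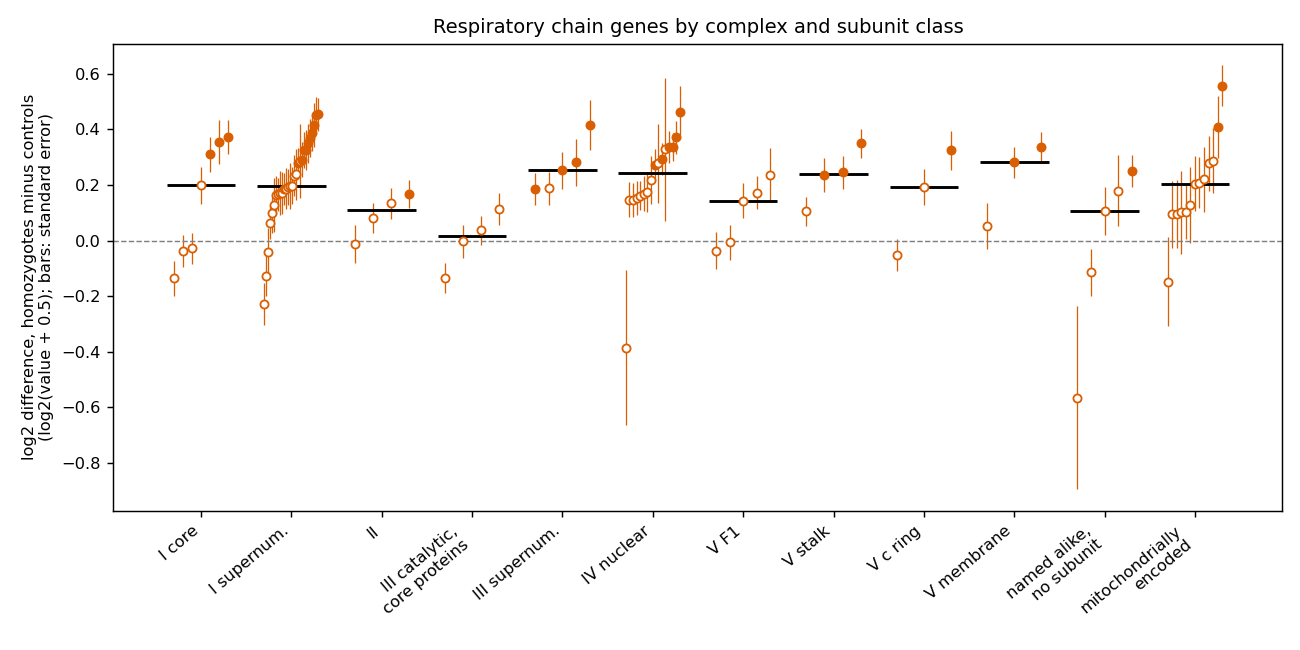
Log2 difference between homozygotes and controls (y axis, log2(value + 0.5)) for each of the 97 genes, by complex and subunit class; bars are standard errors, filled points passed an adjusted p of 0.05 and black lines are class medians. The medians of the supernumerary classes sit above 0, while the medians of the catalytic subunits and the core proteins of complex III lie at 0.02 and -0.01. In complex I the core and the supernumerary medians are both 0.20.

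**Figure D2:**
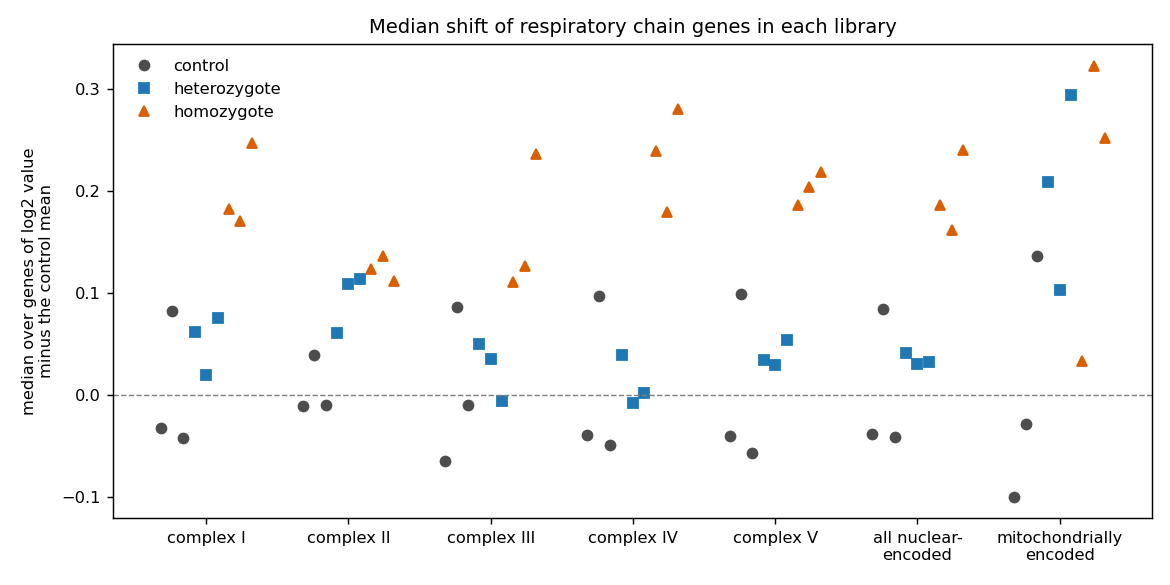
Median over the genes of each complex of the log2 value minus the control mean (y axis), 1 point per library, 3 per group. For the nuclear-encoded genes of complexes I, III, IV and V all homozygote points lie above all control and heterozygote points, whereas the mitochondrially encoded genes overlap between groups.

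Complex I, which oxidises NADH, contained 14 of the 34 genes that rose, among 35 nuclear-encoded ones with a median difference of 0.20. Beside these counts and those of complexes II to V below, 7.19% of all genes were called higher and 8.03% lower. The 7 nuclear-encoded core subunits, which hold the flavin and the iron-sulfur clusters, divided. Their median was 0.20 with 3 called. Under the exonic length correction it was 0.144 with 3 called higher, and under the coding length correction 0.108 with 2. Ndufs8, an iron-sulfur subunit, measured 57.6, 60.1 and 59.6 in the controls, 66.9, 64.1 and 62.6 in the heterozygotes and 79.1, 76.2 and 74.5 in the homozygotes. It was 0.37 ± 0.06 (SE) higher in homozygotes than in controls (limma, Benjamini-Hochberg adjusted p = 0.00155), and Ndufs7 and Ndufv2 rose as well (0.36 ± 0.08, adjusted p = 0.01, and 0.31 ± 0.06, adjusted p = 0.00587). In contrast, Ndufv1 and Ndufs1 did not pass. Ndufv1, which binds NADH, measured 148, 159.8 and 149.9 in the controls, 162, 168 and 169.9 in the heterozygotes and 157, 147 and 145 in the homozygotes. Its difference was -0.03 ± 0.06 (adjusted p = 0.787), and that of Ndufs1, the largest iron-sulfur subunit, was -0.14 ± 0.06 (adjusted p = 0.174). Although Ndufs1 missed the threshold, its homozygote values of 244, 261 and 234 all lay below the control values of 265, 267 and 281.

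Among the 28 supernumerary subunits of complex I, 11 rose and none fell, with a median of 0.20. Under the exonic length correction 7 were higher and 1 lower with a median of 0.0604, and under the coding length correction 6 and 2 with 0.0737. The highest was Ndufb11, an X-linked subunit of the membrane arm (NCBIM37 chrX:20192452-20194745). It measured 119.9, 127 and 113 in the controls, 126, 135 and 128 in the heterozygotes and 167, 159 and 167 in the homozygotes. All homozygote libraries lay above all others, a difference from controls of 0.45 ± 0.06 or 37.0% above the control mean (limma, adjusted p = 0.000329). Ndufa13 (chr8:72418087-72426457), which is also known as GRIM-19, measured 86.1, 89.1 and 79.2 in the controls, 103, 95.6 and 93.3 in the heterozygotes and 120.5, 114 and 114 in the homozygotes. Here the heterozygotes lay between the other groups without overlapping either, with a homozygote difference of 0.45 ± 0.06 (adjusted p = 0.000586). Ndufa1, a small X-linked subunit needed for assembly, measured 51.5, 47.7 and 50.8 in the controls, 54.5, 50.6 and 53.6 in the heterozygotes and 73.5, 59.5 and 68.3 in the homozygotes, which is 0.42 ± 0.08 above controls (adjusted p = 0.00424, lost under both length corrections). The lowest difference was that of Ndufb7, which did not pass against controls but did in 3 of 22 alternatives (adjusted p down to 0.00359). Its call against heterozygotes held in all 22. It measured 71.2, 84.2 and 75.8 in the controls, 85.5, 88.2 and 79.2 in the heterozygotes and 65.1, 62.5 and 69.2 in the homozygotes. Every homozygote library was below every other library, with differences of -0.23 ± 0.07 against controls (adjusted p = 0.055) and -0.36 ± 0.07 against heterozygotes (adjusted p = 0.00734). Ndufa9, a commonly used marker of complex I, did not pass at 0.10 ± 0.07 (adjusted p = 0.379). Per kilobase of coding transcript, control means ranged from 15.5 for Ndufb4 to 241 for Ndufb8.

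Ndufs6, an accessory subunit of the peripheral arm (NCBIM37 chr13:73457286-73465990, minus strand), measured 72.6, 71.4 and 69.7 in the controls, 77.2, 71.1 and 62.2 in the heterozygotes and 86.2, 82.3 and 83.0 in the homozygotes. The homozygote libraries were above all others. This came to 0.23 ± 0.07 against controls (limma, adjusted p = 0.051, just outside the threshold) and 0.26 ± 0.07 against heterozygotes (adjusted p = 0.0353). Over the 22 alternative settings its adjusted p spanned 0.0238 to 0.636 against controls and 0.0169 to 0.315 against heterozygotes, and the call against heterozygotes was lost in 11 of the 22.

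Complex II, the succinate dehydrogenase of the citric acid cycle, had a median of 0.11, with 1 of 4 genes called. Sdhd, a membrane anchor, measured 247, 251 and 243 in the controls, 268, 278 and 282 in the heterozygotes and 273, 288 and 272 in the homozygotes. Both Cre groups were above the controls and overlapped each other, with 0.17 ± 0.05 between homozygotes and controls (adjusted p = 0.0411) and 0.01 ± 0.05 between homozygotes and heterozygotes (adjusted p = 0.944). The call was lost in 15 of 22 alternatives. Sdha, the flavoprotein that oxidises succinate, measured 374, 384 and 380.5 in the controls, 402, 432 and 419 in the heterozygotes and 376, 416 and 342 in the homozygotes, which is -0.01 ± 0.07 against controls (adjusted p = 0.93). Sdhb, the iron-sulfur subunit, was at 0.13 ± 0.06 (adjusted p = 0.128) and Sdhc, the other anchor, at 0.08 ± 0.05 (adjusted p = 0.339). Control means per kilobase lay close together, from 131 for Sdha to 195 for Sdhc.

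Complex III, which passes electrons from ubiquinol to cytochrome c, gave different counts by subunit class, a difference that was not tested. All 5 small supernumerary subunits were higher in each homozygote library than in any control and 4 of them rose, with a median of 0.25. With the trend on exonic length removed the median was 0.0644 with 1 call, and with that on coding transcript length 0.0628 with none at an adjusted p under 0.05. Uqcrq, which holds to cytochrome b, measured 94.0, 113 and 93.0 in the controls, 108, 108 and 95.8 in the heterozygotes and 146, 120.4 and 135 in the homozygotes. This was 0.41 ± 0.09 above controls (adjusted p = 0.00804) and 0.36 ± 0.09 above heterozygotes (adjusted p = 0.0186). Uqcr11 and Uqcr10 rose by 0.28 ± 0.08 and 0.25 ± 0.07 (adjusted p = 0.0361 and 0.0218), Uqcrb by 0.19 ± 0.06 (adjusted p = 0.0417), and Uqcrh, the hinge protein and the most abundant nuclear member of the complex per kilobase at 516, was at 0.19 ± 0.06 (adjusted p = 0.0511). The calls against controls of Uqcr11, Uqcr10, Uqcrb and Uqcrq were lost in 10, 8, 13 and 2 of 22 alternatives, and that of Uqcrq against heterozygotes in 6. None of the catalytic subunits or core proteins passed. Uqcrfs1, the Rieske iron-sulfur protein, measured 191, 212 and 197 in the controls, 193, 193 and 207 in the heterozygotes and 192, 199 and 208 in the homozygotes, a difference of 0.00 ± 0.06 (adjusted p = 0.986). Cyc1, cytochrome c1, was at 0.04 ± 0.05 (adjusted p = 0.683). Uqcrc1, a large core protein, measured 265, 291 and 275 in the controls, 275, 284 and 274 in the heterozygotes and 256, 249 and 252 in the homozygotes. The homozygote libraries were all lower, with a difference of -0.13 ± 0.05 against controls (adjusted p = 0.102).

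Complex IV, cytochrome c oxidase, had a median of 0.24 over its 16 nuclear-encoded genes, 6 of which were called. With the trend on exonic length removed the median was 0.0344 with 2 called. Cox7b, Cox7c and Cox7a1 led. Cox7b, an X-linked structural subunit, measured 232, 244 and 231 in the controls, 228, 224 and 231 in the heterozygotes and 301, 289 and 302 in the homozygotes. Its difference from controls was 0.34 ± 0.05 (adjusted p = 0.000918), and from heterozygotes 0.39 ± 0.05 (adjusted p = 0.00044). Cox7c measured 193, 203 and 186 in the controls, 205, 201 and 184 in the heterozygotes and 257, 250.1 and 245 in the homozygotes, or 0.37 ± 0.06 (adjusted p = 0.0012). Cox7a1 (chr7:30969190-30971047), the heart and muscle form of subunit 7a, measured 24.4, 30.8 and 27.8 in the controls, 25.0, 25.5 and 27.1 in the heterozygotes and 39.4, 36.0 and 39.0 in the homozygotes. This gave 0.46 ± 0.09 against controls and 0.55 ± 0.09 against heterozygotes (adjusted p = 0.00608 and 0.00236), and in these 3 genes no homozygote library overlapped another group. Cox6b1 and Ndufa4 rose as well (0.34 ± 0.06, adjusted p = 0.00221, and 0.27 ± 0.06, adjusted p = 0.00803). The calls of Cox6b1, Ndufa4 and Cox7a1 against controls were lost under both length corrections, with adjusted p up to 0.291, 0.82 and 0.157 over the alternatives. Against heterozygotes the call of Cox7a1 held in all 22 alternatives, that of Ndufa4 was lost in 1 and that of Cox6b1 in 4. Cox4i1, whose product is widely used as a mitochondrial marker, measured 343, 369 and 351 in the controls, 359.7, 345 and 355 in the heterozygotes and 406, 392 and 391 in the homozygotes. The homozygote libraries were all higher, by 0.16 ± 0.05 (adjusted p = 0.051), and the sign reversed to -0.05 once the trend with exonic length was removed. Cox8a, with 0.15 ± 0.06 (adjusted p = 0.117), reversed to -0.08 under the same correction. Cox5a and Cox6a1, which encode further nuclear subunits, were at 0.15 ± 0.06 and 0.15 ± 0.06 (adjusted p = 0.131 and 0.137).

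In complex V, 6 of 15 nuclear-encoded genes rose and the median was 0.19. Under the exonic length correction 4 were higher and 1 lower with a median of 0.12, and under the coding length correction 2 and 1 with 0.0570. The 2 subunits that form the catalytic head, Atp5a1 and Atp5b, were among the most abundant nuclear members, and neither passed. Atp5b, the beta subunit, measured 2228, 2386 and 2275 in the controls, 2360.4, 2449.8 and 2478 in the heterozygotes and 2215, 2302 and 2201 in the homozygotes, which is -0.04 ± 0.07 against controls (adjusted p = 0.765). Atp5a1, the alpha subunit, was at -0.01 ± 0.06 (adjusted p = 0.959). None of the 5 F1 subunits was called. In the peripheral stalk, which holds the head in place, 3 of 4 rose. Atp5o, known as the oligomycin sensitivity conferring protein, measured 395, 424 and 397 in the controls, 454, 435 and 453 in the heterozygotes and 519.9, 509 and 521 in the homozygotes. The heterozygotes lay between the other groups without overlap, and the homozygotes were 0.35 ± 0.05 above controls (adjusted p = 0.000857). Of the small membrane subunits Atp5j2 and Atp5l rose, by 0.33 ± 0.06 and 0.28 ± 0.06 (adjusted p = 0.00173 and 0.00514). The call of Atp5l was lost under both length corrections, while that of Atp5j2 held in all 22 alternatives. Atp5j2 measured 205, 221 and 204 in the controls, 216, 204 and 218 in the heterozygotes and 269, 256 and 269 in the homozygotes. Per kilobase, control means ranged from 201 for Atp5d to 1199 for Atp5b.

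Several subunits exist as isoforms from separate genes, and these did not always move together. The membrane-embedded c ring that rotates in complex V is built from 1 mature protein encoded by Atp5g1, Atp5g2 and Atp5g3. Atp5g1 measured 187, 214 and 188 in the controls, 188, 203 and 207 in the heterozygotes and 255, 227 and 256 in the homozygotes, a rise of 0.32 ± 0.07 (adjusted p = 0.00827), while Atp5g2 measured 216, 237 and 222 in the controls, 232, 233 and 223 in the heterozygotes and 216, 207 and 229 in the homozygotes, at -0.05 ± 0.06 (adjusted p = 0.61). As a share of the 3 genes' summed value per kilobase, Atp5g1 took 19.4%, 19.99% and 19.5% in controls, 18.7%, 20.1% and 19.6% in heterozygotes and 22.9%, 21.2% and 21.6% in homozygotes, and Atp5g2 took 23.9%, 23.6% and 24.5%, 24.6%, 24.6% and 22.6% and 20.7%, 20.6% and 20.7%. The homozygote shares of both lay outside the other groups, and these shares are a description with no test. Atp5g2 has 3 near-identical copies elsewhere in the genome, so its reads may be shared. Cox7a1 took 21.5%, 24.1% and 24.1% of Cox7a1 plus Cox7a2 in controls and 26.0%, 25.2% and 25.1% in homozygotes. Cox7a2, the widely expressed form, rose as well (0.29 ± 0.06, adjusted p = 0.00479). The call of Cox7a2 was lost under the exonic length correction, and that of Atp5g1 under the coding length correction and in limma without the trend. For the other muscle form, Cox6a2, the shares of 21.0%, 21.4% and 21.9% in controls and 21.6%, 22.6% and 22.7% in homozygotes overlapped. The remaining second forms were scarce: Cox4i2 averaged 0.906% of the Cox4i pair in controls, Cox6b2 2.43% of the Cox6b pair, Cox8b 1.57% of the Cox8 pair and Ndufa4l2 0.29% of Ndufa4 plus Ndufa4l2, and none of the 4 was called in any comparison.

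**Figure D3:**
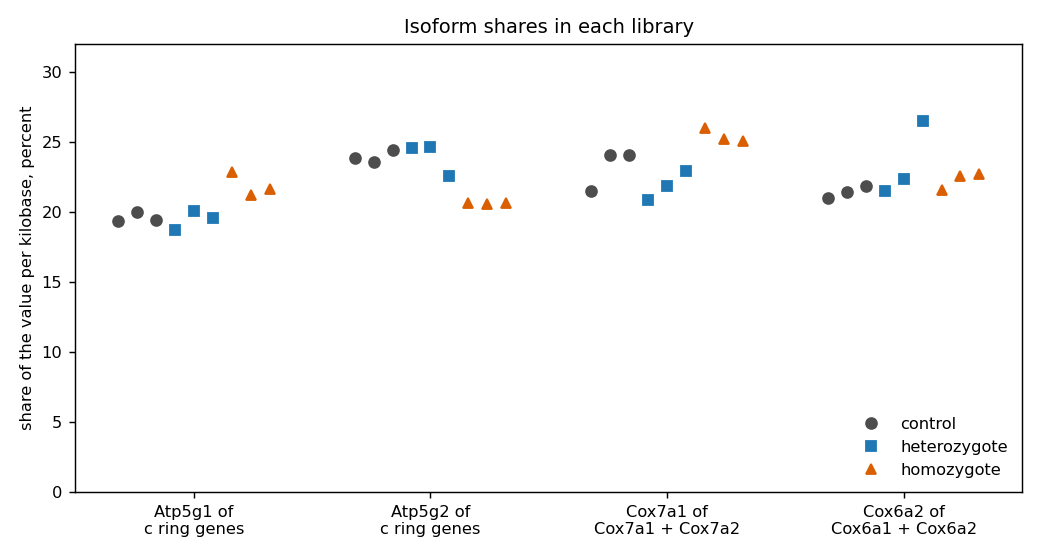
Share of the value per kilobase of coding transcript (y axis, percent, from 0) taken by 4 genes of isoform sets, 1 point per library and 3 per group. Homozygote points lie above the rest for Atp5g1 and Cox7a1 and below the rest for Atp5g2, and overlap with other groups for Cox6a2.

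Mitochondrial DNA is transcribed into long polycistronic RNAs that are cut at the tRNAs, and its 13 protein-coding genes supply the hydrophobic core of the proton-pumping complexes. These genes took 4.56% to 5.83% of all reads in a library, against 1.67% to 1.84% for the 84 nuclear-encoded members. In homozygotes 2 of 13 rose and none fell, beside 7.19% of all genes called higher and 8.03% lower. Their median was 0.20 and turned to -0.03 with quantile normalisation, a setting that can remove a shift shared by abundant genes. mt-Nd3, a membrane subunit of complex I, measured 777, 773 and 794 in the controls, 770.1, 729 and 798 in the heterozygotes and 1018, 1244 and 1200.2 in the homozygotes. Controls and heterozygotes coincided and all homozygote libraries lay above them, by 0.56 ± 0.07 and 0.59 ± 0.07 (limma, adjusted p = 0.000345 and 0.000311). mt-Nd1 measured 3807, 4009 and 4663 in the controls, 4789, 4499.9 and 5209 in the heterozygotes and 4763, 6059 and 5761 in the homozygotes, or 0.41 ± 0.11 above controls (adjusted p = 0.0248), but here the heterozygotes overlapped the controls and the homozygotes, and the call was lost in 10 of 22 alternatives.

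The other 11 mitochondrially encoded genes did not pass in any comparison of the main limma fit. Over the 22 alternatives mt-Atp6 passed against controls in 3, and mt-Nd2 and mt-Co3 in 1 each. Against heterozygotes mt-Co1 passed in 1. Those of complex IV, the catalytic core of cytochrome c oxidase, were the most abundant per kilobase, at 8688 for mt-Co2, 7849 for mt-Co1 and 6946 for mt-Co3 in controls. mt-Co1 measured 11447, 11976 and 12957 in the controls, 14024, 12813 and 14444 in the heterozygotes and 11227, 14302 and 13453 in the homozygotes, a difference of 0.09 ± 0.12 (adjusted p = 0.659), with the groups overlapping. mt-Co2 was at 0.20 ± 0.10 and mt-Co3 at 0.21 ± 0.09 (adjusted p = 0.188 and 0.148). In complex III, mt-Cytb was at 0.10 ± 0.10 (adjusted p = 0.534), and in complex V mt-Atp6 was at 0.28 ± 0.10 (adjusted p = 0.0783). The remaining complex I genes ranged from mt-Nd5 at -0.15 ± 0.16 to mt-Nd2 at 0.29 ± 0.12 (adjusted p = 0.585 and 0.112), with mt-Nd4 at 0.22 ± 0.12, mt-Nd6 at 0.10 ± 0.12 and mt-Nd4l at 0.10 ± 0.15 between them. Homozygote library 1 was the lowest of the 3 homozygote libraries for all 13 genes. Relative to the control mean, the median over the 13 genes was -0.10, -0.03 and 0.14 in controls, 0.21, 0.10 and 0.29 in heterozygotes, and 0.03, 0.32 and 0.25 in homozygotes. The 3 groups overlapped.

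**Figure D4:**
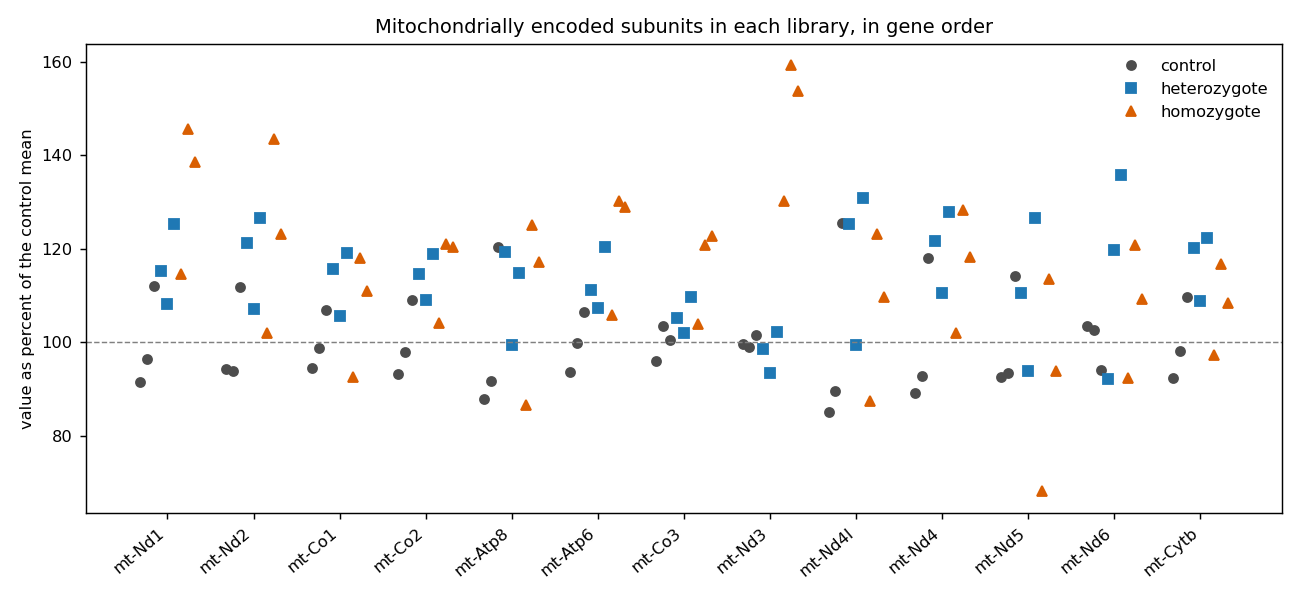
Value of each of the 13 mitochondrially encoded genes in each library as percent of the control mean (y axis), in gene order along the mitochondrial genome, 3 points per group. For mt-Nd3 the homozygote points stand clear of both other groups, and in most other genes the groups overlap.

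Some of these genes share bases, so that their counts are not independent. mt-Atp8 and mt-Atp6 overlap by 43 bases and mt-Nd4l and mt-Nd4 by 7, on the plus strand of the mitochondrial chromosome of NCBIM37, and the overlaps are shown because a read across them fits either gene (overlap in capitals, 20 bases on each side in lower case).
mt-Atp8/mt-Atp6, chrM:7907-7989: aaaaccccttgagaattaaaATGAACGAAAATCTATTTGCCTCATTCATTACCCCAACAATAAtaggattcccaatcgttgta
mt-Nd4l/mt-Nd4, chrM:10147-10193: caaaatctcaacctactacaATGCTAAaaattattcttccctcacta
mt-Atp8 measured 939.9, 981 and 1289 in the controls, 1276, 1064 and 1229 in the heterozygotes and 926, 1338 and 1254 in the homozygotes, and mt-Nd4l 228, 240.3 and 337 in the controls, 336, 267 and 351 in the heterozygotes and 235, 331 and 294 in the homozygotes. Of all 13, 9 also had a copy in the nuclear genome at 95% identity or more over at least 50% of the transcript. The copy of mt-Nd4l carries a gene of its own, Gm10222, whose value equalled that of mt-Nd4l in all 9 libraries. Gm10925, which copies mt-Atp8 and mt-Atp6, measured 901, 913 and 1030.2 in the controls, 1153, 997 and 1158 in the heterozygotes and 967, 1249 and 1234 in the homozygotes. mt-Nd6 lies on the minus strand and overlaps the end of mt-Nd5 by 14 bases, and the labels do not say whether the libraries kept strand.

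Homozygotes were next compared with heterozygotes, which carry the same Cre driver and 1 intact Ctcf allele. This comparison shares its homozygote libraries with the one against controls, so the values of both are given side by side. Here 31 of the 97 genes were higher in homozygotes, beside 6.87% of all tested genes, and 2 were lower, beside 6.70%. In the same contrast 11 of 12 erythroid and 3 of 5 epicardial markers were higher and 4 of 12 cardiomyocyte markers lower, and their part in these counts was not tested. The median over the nuclear-encoded genes was 0.18, which came to 0.0618 and 0.0718 with the trend on exonic or coding transcript length removed. Under these corrections 13 and 12 of the 97 were called higher, and 5 and 4 lower. Over all 14011 genes they called 778 and 789 higher, and 713 and 776 lower. In 50 of 97 the homozygote libraries were all higher than the heterozygote ones, beside 15.3% of all genes. In complex I 10 of 28 supernumerary and 2 of 7 core subunits rose, in complex III 4 of 5 supernumerary subunits and none of the 4 others, and in complex IV 7 of 16 nuclear-encoded genes. No difference between subunit classes was tested. Ndufa7, of complex I, measured 60.0, 65.4 and 58.1 in the controls, 61.9, 59.6 and 65.2 in the heterozygotes and 79.4, 72.9 and 82.1 in the homozygotes, a rise of 0.32 ± 0.07 over heterozygotes (adjusted p = 0.00979). That call was lost under the coding length correction (limma, adjusted p = 0.0832). The 2 genes that fell were Ndufb7 (above) and Ndufs1, at -0.21 ± 0.06 (adjusted p = 0.0494, lost in 16 of 22 alternatives). Of the mitochondrially encoded genes mt-Nd3 alone passed, and their median was -0.03. The number called depended on single libraries: it was 17 without heterozygote library 2, 19 without heterozygote library 3 and 17 without homozygote library 3, against 33 with all 9.

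Heterozygotes were compared with controls to ask what loss of 1 Ctcf allele together with Cre does. None of the 97 genes passed in limma, edgeR or voom, beside 0.143% of all tested genes called in either direction. In limma 9 of the 97 had an unadjusted p under 0.05, beside 1032 of all 14011 genes. In 13 of 97 the heterozygote libraries were all higher than the controls, beside 7.41% of all genes. The medians were 0.04 for the nuclear-encoded and 0.19 for the mitochondrially encoded genes. Among nuclear members the widest such gap was that of Ndufs7, which measured 63.4, 61.8 and 62.2 in the controls, 79.0, 76.6 and 70.7 in the heterozygotes and 86.6, 70.2 and 84.3 in the homozygotes, or 0.27 ± 0.08 between heterozygotes and controls (adjusted p = 0.394). Ndufv3, a supernumerary subunit beside the NADH site, measured 73.3, 80.2 and 74.9 in the controls, 92.6, 87.7 and 91.2 in the heterozygotes and 107, 93.5 and 98.9 in the homozygotes, or 0.25 ± 0.07 (adjusted p = 0.286). For homozygotes against the same controls the differences were 0.36 ± 0.08 and 0.39 ± 0.07.

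The nuclear-encoded members are short genes. The median exonic length of the nuclear-encoded members was 1240 bases, against 3669 over all annotated genes in the table. Among the 42 members shorter than that median the median difference of homozygotes from controls was 0.23 and 18 rose, and among the 42 others it was 0.17 and 14 rose. When the trend of the differences with exonic length over all genes was removed, the nuclear median fell to 0.06 with 17 genes called higher and 3 lower, and with the length of the coding transcripts it was 0.07 with 14 higher and 4 lower. Over all 14011 genes 732 were called higher and 663 lower with the first correction, and 768 and 820 with the second. Ndufb11, Ndufa13, Cox7b, Cox7c, Atp5o, Atp5j2 and mt-Nd3 passed under both corrections. Uqcrc1, Atp5g2 and Ndufb10 fell in both: against controls Uqcrc1 came to -0.21, Atp5g2 to -0.27 and Ndufb10 to -0.25 with the exonic length (adjusted p = 0.0168, 0.00314 and 0.0262, limma). The part of the length trend in the counts above was not tested.

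**Figure D5:**
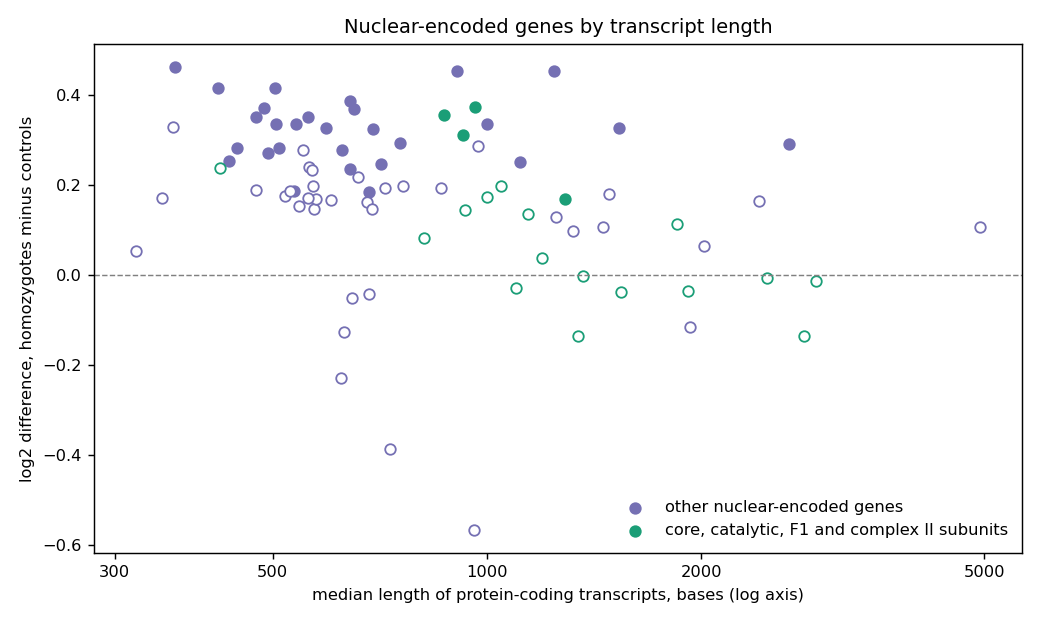
Log2 difference between homozygotes and controls (y axis) of the 84 nuclear-encoded genes against the median length of their protein-coding transcripts (x axis, log scale); filled points passed an adjusted p of 0.05. Core, catalytic, F1 and complex II subunits are in green and the other genes in purple, and the class medians among the green points run from -0.01 for the complex III core proteins to 0.20 for the complex I core subunits.

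Genes that serve the same complexes from outside the chosen names were read beside them. Of 7 such partner genes, 4 rose in homozygotes against controls and none fell, beside 7.19% of all genes called higher, with a median of 0.23. Under the exonic and coding length corrections 2 and 1 were called, with medians of 0.0586 and 0.121. Usmg5, a small ATP synthase subunit, measured 124, 139 and 128 in the controls, 123, 127 and 122 in the heterozygotes and 156, 170.3 and 170.0 in the homozygotes (0.34 ± 0.06, adjusted p = 0.00247), Atpif1, the inhibitor of ATP synthase, 155, 151 and 143 in the controls, 151, 153 and 138 in the heterozygotes and 183, 191 and 196 in the homozygotes (0.34 ± 0.06, adjusted p = 0.00224), and Cycs, the electron carrier cytochrome c, 281, 289 and 282 in the controls, 303, 268 and 285 in the heterozygotes and 326, 343 and 332 in the homozygotes (0.23 ± 0.06, adjusted p = 0.0145). The homozygote libraries were the highest for each. Higd2a rose by 0.27 ± 0.08 (adjusted p = 0.0305).

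The 34 assembly factors in the table had a median of 0.07, and 2 rose and 2 fell, shares near the 7.19% higher and 8.03% lower over all genes. Cox17 and Cox19, which carry copper for cytochrome oxidase, rose by 0.38 ± 0.07 and 0.47 ± 0.12 (adjusted p = 0.00252 and 0.0178). Ndufaf3, an assembly factor of complex I, measured 11.1, 12.4 and 14.3 in the controls, 12.2, 12.0 and 12.1 in the heterozygotes and 7.38, 6.69 and 7.70 in the homozygotes, which is -0.75 ± 0.13 against controls (adjusted p = 0.00241), so that the homozygote libraries were clearly lowest. Cox15, of heme A synthesis, was at -0.26 ± 0.07 (adjusted p = 0.0166). Among the 13 genes of coenzyme Q synthesis the median was -0.01, and 1 was called, lower, which is near the 8.03% over all genes. This was Coq3, at -0.37 ± 0.11 (adjusted p = 0.0365). Of 28 genes that maintain or express mitochondrial DNA, 1 rose and 3 fell, again near the shares over all genes, with a median of 0.02. Mtpap, the mitochondrial poly(A) polymerase, was at 0.38 ± 0.08, and Lrpprc, which stabilises mitochondrial mRNAs, Polg, the mitochondrial DNA polymerase, and Pnpt1, an RNA-degrading enzyme, were at -0.23 ± 0.06, -0.23 ± 0.07 and -0.28 ± 0.08 (adjusted p = 0.00548, 0.0255, 0.0417 and 0.0335). As references for mitochondrial content, 9 genes such as Vdac1, Hspa9 and Cs had a median of -0.02, and 1 rose, beside 7.19% of all genes. This was Tomm20, at 0.31 ± 0.06 (adjusted p = 0.00358). The summed value of the 9 genes spanned 3424 to 3593 in controls and 3314 to 3538 in homozygotes.

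Promoter windows from RefSeq (GRCm38.p6, 250 bases before to 50 after the transcript start) matched 68 of the 84 nuclear-encoded members, 29 of them called higher, and were searched on both strands for 4 short motifs: the NRF1 palindrome, CCGGAAG of ETS factors, AAGATGGC of YY1 and the CTCF core. No motif matches overlapped each other in these windows. The NRF1 letters stood in 5 of the 68 member windows (7.35%) against 2.04% of windows of genes in the table, and the YY1 letters in 10 (14.7%) against 4.58%. The ETS letters stood in 15 (22.1%) against 17.7% and the CTCF letters in 4 (5.88%) against 2.90%. Over all 27025 windows the shares were 0.977%, 2.88%, 9.12% and 2.41%. Among the 29 members that rose, 1 held the NRF1 letters, 6 the ETS letters, 3 the YY1 letters and none the CTCF letters, which only says that these letters were not in this window. The following 5 windows are shown for members whose values are given above, Ndufb11 and Atp5j2 and Ndufs8 as genes that rose, Ndufs6 as a gene at the threshold and Uqcrc1 as a core protein that did not rise (motif matches in capitals, transcript strand, 5′ to 3′).
Ndufb11, chrX:20617570-20617869, minus strand: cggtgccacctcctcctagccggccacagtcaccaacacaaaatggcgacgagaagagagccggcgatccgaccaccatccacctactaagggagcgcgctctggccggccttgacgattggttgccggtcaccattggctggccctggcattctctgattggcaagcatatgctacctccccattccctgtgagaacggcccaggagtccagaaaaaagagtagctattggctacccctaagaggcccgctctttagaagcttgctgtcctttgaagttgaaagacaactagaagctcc
Ndufs8, chr19:3912725-3913024, minus strand: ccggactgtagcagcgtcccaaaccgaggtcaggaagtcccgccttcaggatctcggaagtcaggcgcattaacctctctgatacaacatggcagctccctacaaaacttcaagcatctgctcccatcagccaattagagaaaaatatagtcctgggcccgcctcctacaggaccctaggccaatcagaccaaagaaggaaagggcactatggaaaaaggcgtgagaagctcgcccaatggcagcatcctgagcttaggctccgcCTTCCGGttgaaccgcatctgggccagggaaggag
Atp5j2, chr5:145191492-145191791, minus strand: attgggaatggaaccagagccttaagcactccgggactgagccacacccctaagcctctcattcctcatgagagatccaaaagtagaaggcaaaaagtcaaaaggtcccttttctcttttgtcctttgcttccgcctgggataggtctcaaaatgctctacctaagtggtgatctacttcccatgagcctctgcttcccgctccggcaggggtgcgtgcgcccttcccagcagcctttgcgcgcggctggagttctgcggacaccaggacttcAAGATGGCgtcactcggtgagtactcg
Ndufs6, chr13:73328433-73328732, minus strand: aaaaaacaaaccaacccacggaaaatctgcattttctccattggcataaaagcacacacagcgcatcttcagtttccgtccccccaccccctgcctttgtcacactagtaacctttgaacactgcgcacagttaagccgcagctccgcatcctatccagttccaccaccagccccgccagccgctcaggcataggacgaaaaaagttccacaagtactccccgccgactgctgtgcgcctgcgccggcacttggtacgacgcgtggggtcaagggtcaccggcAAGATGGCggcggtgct
Uqcrc1, chr9:108936398-108936697, plus strand: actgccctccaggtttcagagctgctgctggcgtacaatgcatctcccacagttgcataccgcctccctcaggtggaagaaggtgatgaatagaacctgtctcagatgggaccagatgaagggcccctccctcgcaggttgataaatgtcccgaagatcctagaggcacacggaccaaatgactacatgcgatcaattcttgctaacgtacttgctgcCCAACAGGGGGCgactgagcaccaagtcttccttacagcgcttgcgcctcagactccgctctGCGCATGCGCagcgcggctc
Ndufb11 held none of the motifs, Ndufs8 the ETS letters, Atp5j2 and Ndufs6 the YY1 letters just downstream of the start, and Uqcrc1 the CTCF letters followed by the NRF1 letters. A match is a description and not a bound site.

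Several members have near-identical copies elsewhere in the genome, so that their reads may be shared. At 95% identity over at least 50% of the transcript, 16 of 84 nuclear-encoded members had such a copy. Over both genomes 8 of the 34 genes that rose had one, among them Ndufb11, Atp5o, Atp5l, Cox7a2l, Uqcr11 and mt-Nd3. Atp5l had 10 copies, Atp5h 4 and Atp5g2 3, those of Atp5g2 with up to 100% identity and up to 100% coverage. For Cox7a2l, which joins complexes III and IV into supercomplexes and rose by 0.25 ± 0.06 (adjusted p = 0.0104, lost in 3 of 22 alternatives, the exonic length correction among them), the copy overlaps a gene of the table, Gm6969. The values of these members remain uncertain to that extent. The 4 other genes that match by name only, Cox4nb, Atp5s, Atp5sl and Ndufa4l2, did not pass, and Ndufa4l2 was near the limit of detection at 1.11, 1.27 and 1.97 in controls and 0.795, 0.592 and 1.04 in homozygotes.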

How the data were processed

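RNA from 9 pools of embryonic hearts was sequenced after poly(A) selection. The submitters' processing notes name CASAVA 1.8, cutadapt 1.6.1, RSEM 1.20, Bowtie2 0.12.7 and limma, with NCBIM37 and Ensembl 65 annotation. The authors deposited normalised signal values per gene, not raw counts: every value is a whole number of reads plus 0.5, multiplied by 1 step per library (100% of values within 0.05 of a whole read). Depth was 4294537 to 11629365 reads. These values were tested on log2(value + 0.5) with limma 3.58.1 with a mean-variance trend (R 4.3.3), all 9 libraries in 1 fit, with Benjamini-Hochberg adjustment over 14011 genes and no filter. Fold changes of low genes are understated on this scale. The edgeR 4.0.16 quasi-likelihood test on the recovered reads called 2212, 1903 and 21 genes against 2133, 1901 and 20 in limma. Scripts were tested on simulated data.

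The members, lists and tests were chosen with earlier results of these data known. Named were all mitochondrially encoded genes, in each nuclear complex the 3 largest called and 2 smallest differences, genes called lower, up to 3 per complex called against heterozygotes, and a list of genes used as markers; the other genes named were chosen after their values were seen, and 1 gene is not reported here. Copies were sought with blastn 2.17.0. Library numbers are those that end the column names. Nothing says that they mark shared litters, and same-numbered libraries did not deviate together (correlations of -0.14 to 0.13), so libraries were not paired. Pools of hearts are the replicates, and p-values measure the spread between them.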

Additional observations from a re-analysis of the deposited data

How the results depend on the processing

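Between homozygotes and controls the number called was 34, all higher, against 22 in limma without the trend, 21 (18 higher and 3 lower) with the trend on exonic length removed and 19 (15 higher and 4 lower) with that on coding transcript length removed, a setting added once the data had been seen; against heterozygotes the number, both directions together, was 33 against 13, 18 and 16, and 11 at an adjusted p under 0.01. Removing the length trends, coding then exonic, took the nuclear median to 0.0703 and 0.0623 against controls and to 0.0718 and 0.0618 against heterozygotes, and the mitochondrially encoded median against controls to 0.0626 and 0.00729, which quantile normalisation took to -0.0273. Leaving out 1 library at a time gave 26 to 42 calls against controls and 17 to 33 against heterozygotes, with nuclear medians of 0.16 to 0.23 and 0.15 to 0.20. Signs reversed against controls for Cox4i1 (-0.0473, exonic length), Cox8a (-0.0138 for coding and -0.0823 for exonic length), mt-Atp6 (-0.0273) and mt-Co3 (-0.0278, both with quantile normalisation), and against heterozygotes for Cox4i1 (-0.00253, exonic length) and mt-Co1, which spanned -0.161 to 0.0134 as single libraries were left out. The cause was not tested. Quantile normalisation gives every library the same set of values, so it can remove a shift shared by abundant genes such as mt-Atp6 and mt-Co3. Between heterozygotes and controls the count was 0 in all 22 alternatives.

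With the library number as a replicate block the counts were 31, 27 and 0; the numbers do not pair the libraries. Counting error limits genes of few reads such as Cox4i2, Cox8b and Ndufa4l2.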
